A study of Mus musculus with 3 samples.

Results

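The Hox genes encode homeodomain transcription factors that lie side by side in 4 clusters and give cells their position along the body axis. The genes taken here were the protein-coding genes of the RefSeq table for the mouse build GRCm38.p6 (also called mm10) with a symbol of Hoxa, Hoxb, Hoxc or Hoxd and a number. This gave 39 of 21887 protein-coding genes outside the mitochondrial genome. They were chosen by symbol, but after their peaks in these same data were known, so all counts below are a description and carry no test. Each cluster was taken as the stretch from the lowest to the highest border of its Hox genes. The stretches lay on chromosome 6 for Hoxa (11 genes) and at chr11:96194316-96368254 for Hoxb (10 genes), chr15:102921131-103036856 for Hoxc (9 genes) and chr2:74668225-74765142 for Hoxd (9 genes), 492.1 kb in all. They held 35 of the 33035 CHD7 peaks and 34 of the 155548 SOX2 peaks.

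Genes of the same number in different clusters are paralogs that arose by duplication of an ancestral cluster, and they are written here as paralog groups 1 to 13. Within a cluster the genes are arranged in the order in which they act along the body. The low-numbered genes act in the hindbrain and branchial arches beside which the ear forms, and the high-numbered genes act in the trunk, limbs and tail. Polycomb proteins keep Hox genes silent in cells outside their domain, and TALE homeodomain proteins such as PBX and MEIS bind DNA together with HOX proteins. CHD7 uses ATP to move nucleosomes, and mutations of its gene cause CHARGE syndrome. SOX2 is an HMG-box transcription factor of sensory and neural progenitors.

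The cells came from wild-type mouse otocysts, the epithelial vesicles that form the inner ear, dissected from embryos of stage E10.5 and dissociated with Accutase. For CUT&Tag, where a transposase tethered through an antibody tags DNA near a protein, 1 pool of 34 vesicles was split into 3 samples. The first sample received an antibody against CHD7 and the second an antibody against SOX2. The control, without a primary antibody, is not analysed here. Each antibody has 1 library of pooled animals, so no value has a replicate check, and read depth is unknown. A peak below is a region of the deposited list of that antibody and does not by itself show binding. Its total signal is the authors' coverage summed over the peak, which can be ranked within a list but not compared between lists. The lowest total signal was 432.7 in the CHD7 list and 733.1 in the SOX2 list. Otic epithelium markers had a CHD7 peak within 1 kb of a gene end at 7 of 12 genes and a SOX2 peak at 8 of 12, hindbrain neural tube markers at 5 and 7 of 10, and mesenchyme and neural crest markers at 6 and 8 of 10. Blood and endothelial markers had them at 1 and 3 of 8, against 30.8% and 59.7% of all protein-coding genes. Peaks do not measure expression, and the cell types in the pool cannot be told apart from them.

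CHD7 peaks were dense in the Hox clusters, and SOX2 peaks were closer to their frequency elsewhere. The 4 stretches held 7.11 CHD7 peaks per 100 kb, against 2 in the 100 kb on each side and 1.21 over all chromosomes. For SOX2 the same values were 6.91, 5.62 and 5.69 peaks per 100 kb. A peak over a cluster border was counted both inside and in the flank, which held for the CHD7 peak at Hoxd13 and the SOX2 peak at Hoxb13. CHD7 peaks covered 7.57% of the bases of the clusters against 1.22% over all chromosomes, and SOX2 peaks 4.37% against 3.92%. There was thus 0.971 SOX2 peak for each CHD7 peak inside the clusters, against 2.81 in the flanks and 4.71 over all chromosomes. The clusters are rich in genes by their definition, which the flanks and whole chromosomes are not. Counted around the genes themselves, with 50 kb on each side, the median Hox gene had 6 CHD7 peaks and 6 SOX2 peaks, and the median protein-coding gene had 2 and 10. Loci of neighbouring Hox genes overlap, so these counts are not independent.

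**Figure D1:**
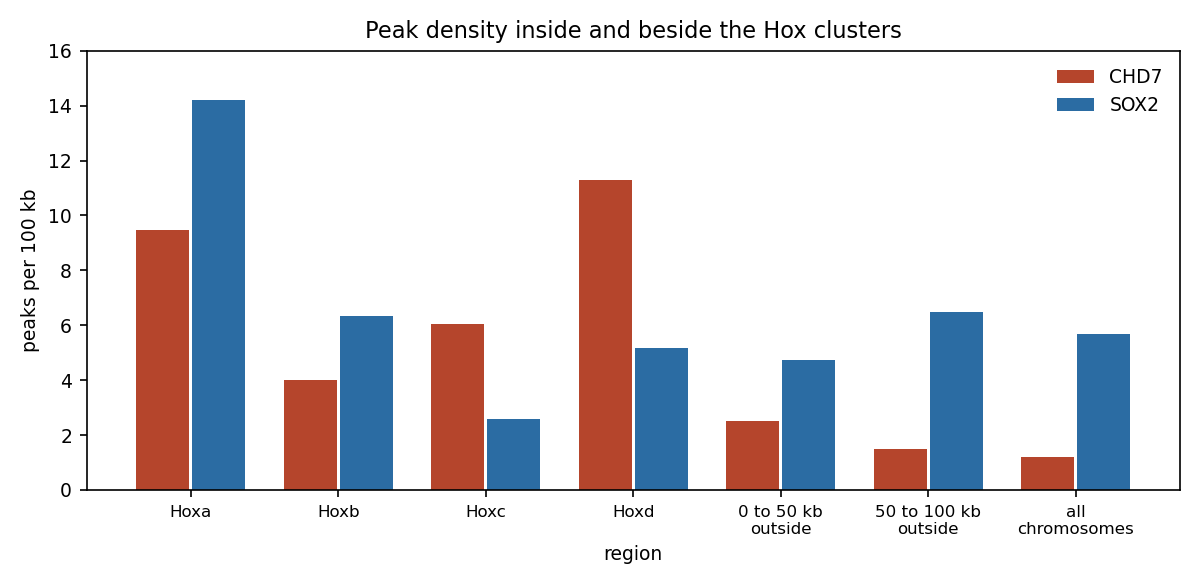
Peaks per 100 kb (vertical axis) in each Hox cluster, in the stretches 0 to 50 kb and 50 to 100 kb outside all 4 clusters, and over all chromosomes, for the CHD7 and SOX2 lists. CHD7 bars stand between 4.02 and 11.3 in the clusters and at 1.21 over all chromosomes, and SOX2 bars fall on both sides of the 5.69 of all chromosomes.

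The clusters differed from one another. Hoxd had the most CHD7 peaks, 11 (11.3 per 100 kb), and Hoxa had 10 (9.48 per 100 kb). Hoxc had 7 (6.05 per 100 kb) and Hoxb also 7 (4.02 per 100 kb), in a longer stretch that includes 74.7 kb without a Hox gene between Hoxb13 and Hoxb9. SOX2 peaks were most frequent in Hoxa, with 15 (14.2 per 100 kb), followed by Hoxb with 11 (6.32), Hoxd with 5 (5.16) and Hoxc with 3 (2.59). In Hoxa and Hoxb the SOX2 peaks thus outnumbered the CHD7 peaks, and in Hoxc and Hoxd the CHD7 peaks outnumbered the SOX2 peaks. From Hoxb1 to Hoxb9 there were 4 CHD7 and 5 SOX2 peaks in 96.9 kb, a stretch as long as the whole Hoxd cluster. The stretch between Hoxb13 and Hoxb9 held 3 CHD7 and 5 SOX2 peaks, 1 of the former lying over the border of Hoxb13.

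**Figure D2:**
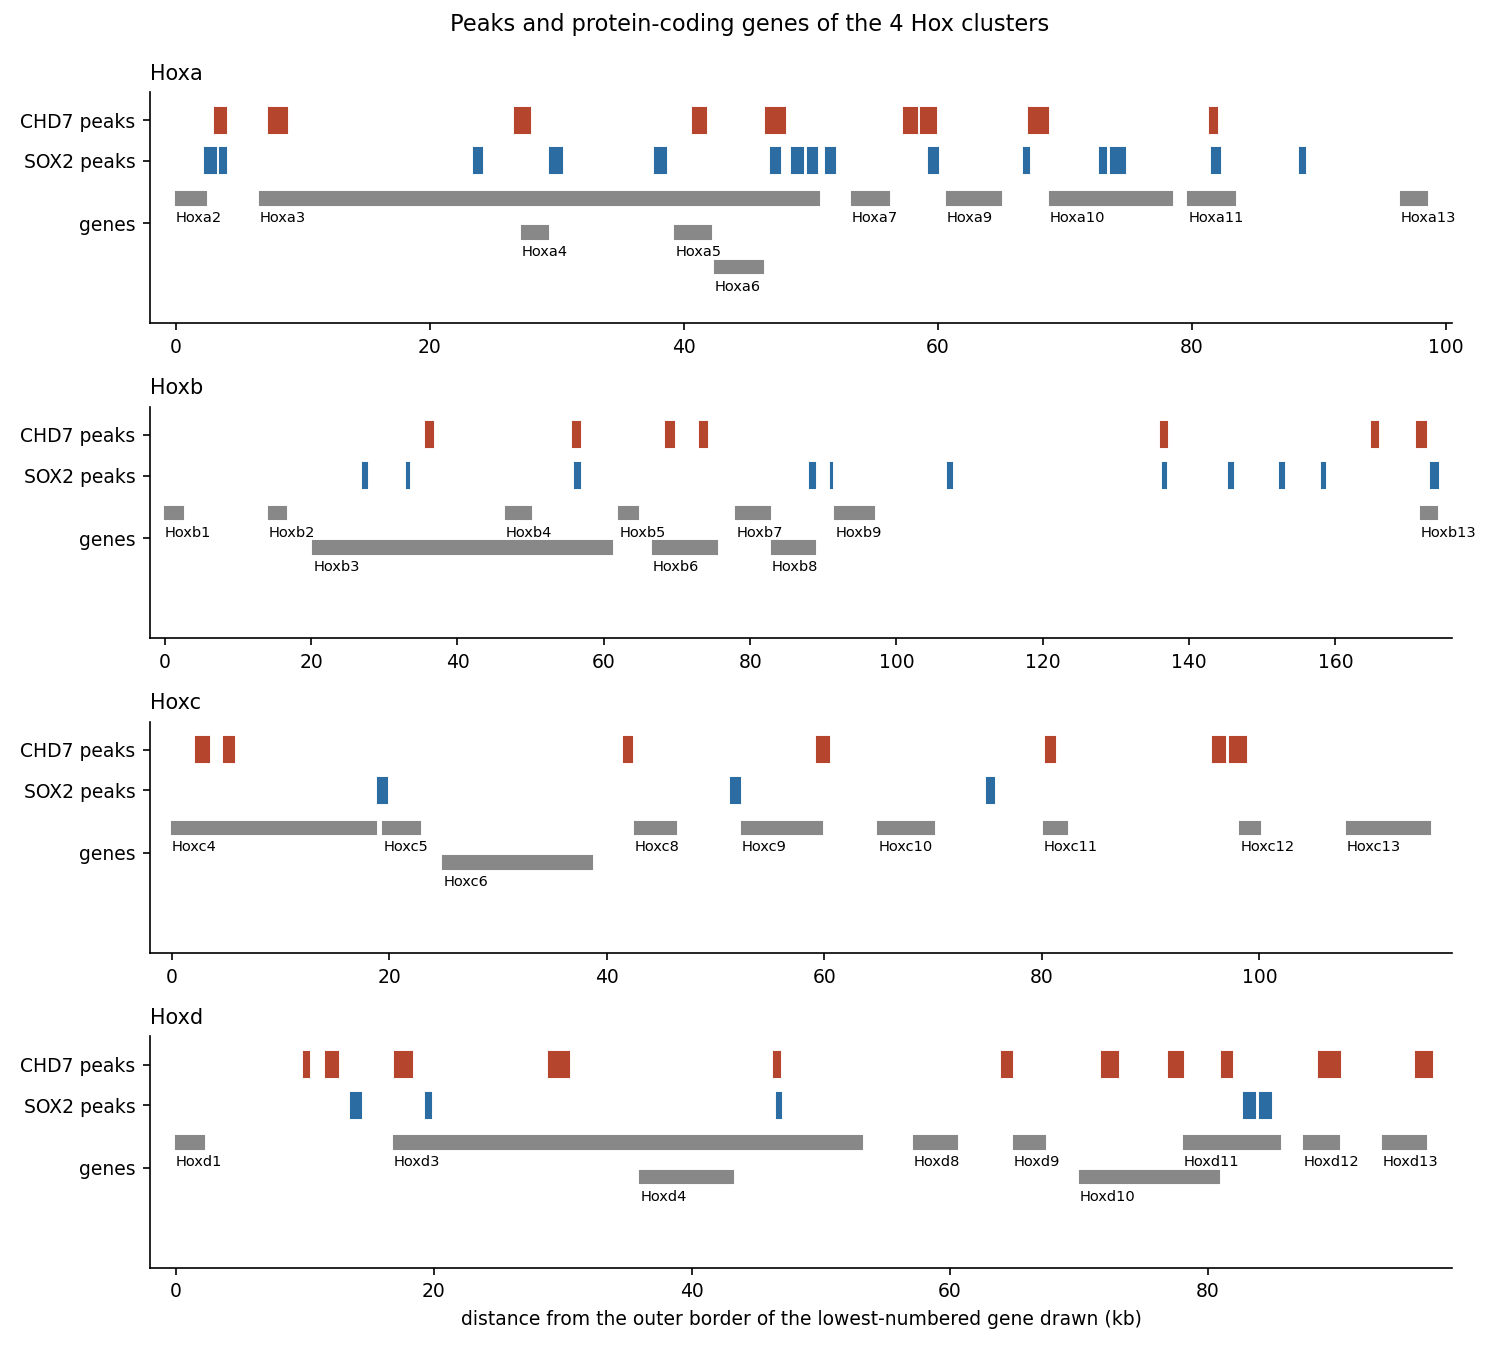
Map of the 4 Hox clusters, with CHD7 peaks, SOX2 peaks and protein-coding Hox genes drawn to scale against the distance in kb from the outer border of the lowest-numbered gene drawn. The Hoxa map begins at Hoxa2. The 15 SOX2 peaks of Hoxa contrast with the 3 of Hoxc, and the 11 CHD7 peaks of Hoxd are spread from Hoxd13 to the space between Hoxd3 and Hoxd1.

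The Hox peaks were weak within their lists. The CHD7 peaks had total signals from 432.7 upward with a median of 564.7 and the middle 50% between 494.1 and 653.5, against a median of 651.3 in the whole list, and the median Hox peak was stronger than 34.6% of the list. The SOX2 peaks ran from 733.1 to 1759 with a median of 894.3, against 997, and the median was stronger than 31.9% of the list. The stronger 50% of the CHD7 list held 9 of the 35 Hox peaks, 5 of them in Hoxa, and its 10000 strongest peaks held 3, those at Hoxa10 and Hoxd9 among them. The stronger 50% of the SOX2 list held 10 of the 34, 7 of them in Hoxa, and its 10000 strongest peaks held 0. The CHD7 peaks were broad and low: their median width was 1050 bases against 950, and their median signal per base was 0.573 against 0.75. SOX2 peaks had a median width of 675 bases against 650, with 1.56 against 1.71 signal per base. The high CHD7 density therefore rested largely on weak peaks. Relative to all chromosomes it was 5.89 times as high with the full list, 3.03 times with the stronger 50% and 1.67 times with the 10000 strongest peaks. For SOX2 these ratios were 1.21, 0.714 and 0. With the SOX2 list limited to its 33035 strongest peaks, the length of the CHD7 list, 3 SOX2 peaks remained in the clusters beside the 35 CHD7 peaks.

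**Figure D3:**
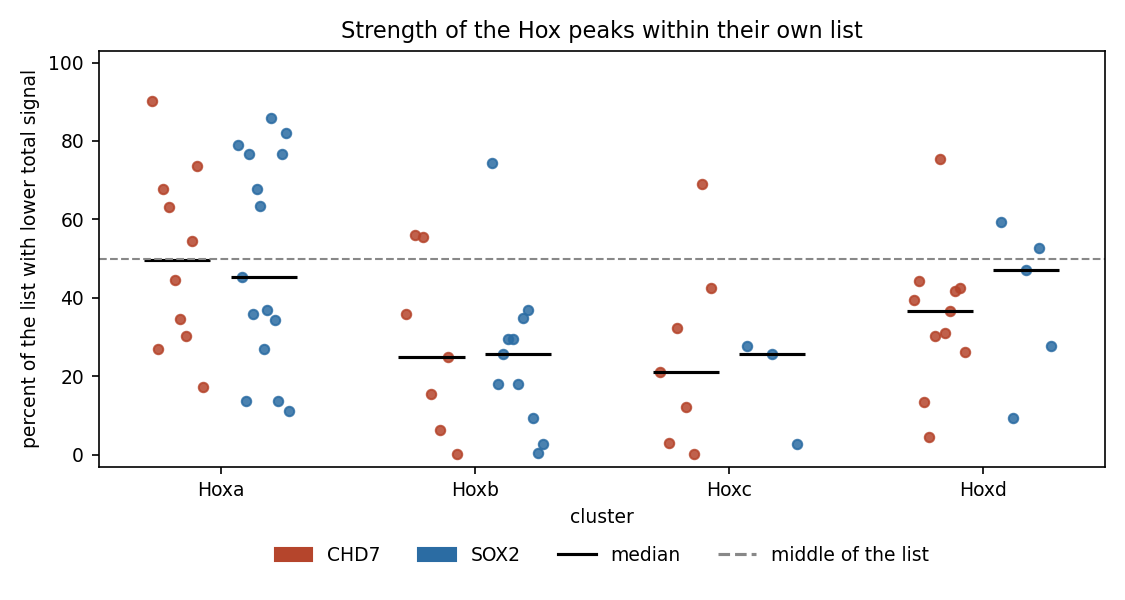
Strength of each Hox peak as the percent of its own list with a lower total signal (vertical axis), by cluster, with a bar at the median and a dashed line at 50%. Hoxa has medians of 49.57 for CHD7 and 45.45 for SOX2, while the CHD7 medians of Hoxb, Hoxc and Hoxd are 24.96, 20.99 and 36.64.

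At the genes themselves CHD7 was more frequent and SOX2 less frequent than over all genes. A CHD7 peak lay within 1 kb of either end of 20 of 39 Hox genes, or 51.3%, against 30.8% of all protein-coding genes. A SOX2 peak lay there at 13, or 33.3%, against 59.7%. Both lists had an end peak at 9, or 23.1%, against 28.3%. CHD7 without SOX2 was found at 11 Hox genes (28.2%), SOX2 without CHD7 at 4 (10.3%) and neither at 15 (38.5%). Over all genes these shares were not counted apart, and they follow from the 30.8%, 59.7% and 28.3% above. Counting every peak once, 19 of the 35 CHD7 peaks (54.3%) and 13 of the 34 SOX2 peaks (38.2%) lay at a Hox gene end. These windows made up 28.7% of the bases of the clusters. A peak counted with 1 base in a window, so peaks placed evenly would reach the windows more often than 28.7%. That share was not computed and grows with peak width, so these values show no excess of peaks at gene ends. A further peak lay at the end of Hoxa13 just outside the cluster. Inside gene bodies but away from ends lay 10 CHD7 and 11 SOX2 peaks, and between genes 6 and 10. Whether a peak inside a gene was exonic or intronic was not determined.

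The share for CHD7 depended on the weak peaks. With the stronger 50% of the list CHD7 lay at the ends of 7 of 39 Hox genes (17.9%), against 19.2% of all genes. With the 10000 strongest peaks there were 3 (7.69%), against 13.3%. SOX2 stayed below the share over all genes at each threshold, with 6 Hox genes (15.4%) against 47.8% and then 0 against 16.9%. Both lists had an end peak at 2 Hox genes (5.13%) with the stronger 50%, against 17.7% of all genes. With the 10000 strongest peaks they did so at 0, against 9.09%. At SOX2 lists of the CHD7 length, 2 Hox genes (5.13%) had SOX2 against 34%. CpG-rich promoters, which are common at developmental genes, were compared separately. RefSeq promoter windows, from 250 bases before to 50 after a start, were at hand for 22 of the 39 Hox genes. Of these, 12 (54.5%) had an observed/expected CpG ratio of at least 0.6, close to the 50.9% of all protein-coding genes with a window. Of those 12 genes, 9 (75%) had CHD7 at an end against 49.8% of all genes with a CpG-rich window, and 5 (41.7%) had SOX2 against 77.6%. Both lists lay at 4 of the 12 (33.3%), against 46.1%.

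**Figure D4:**
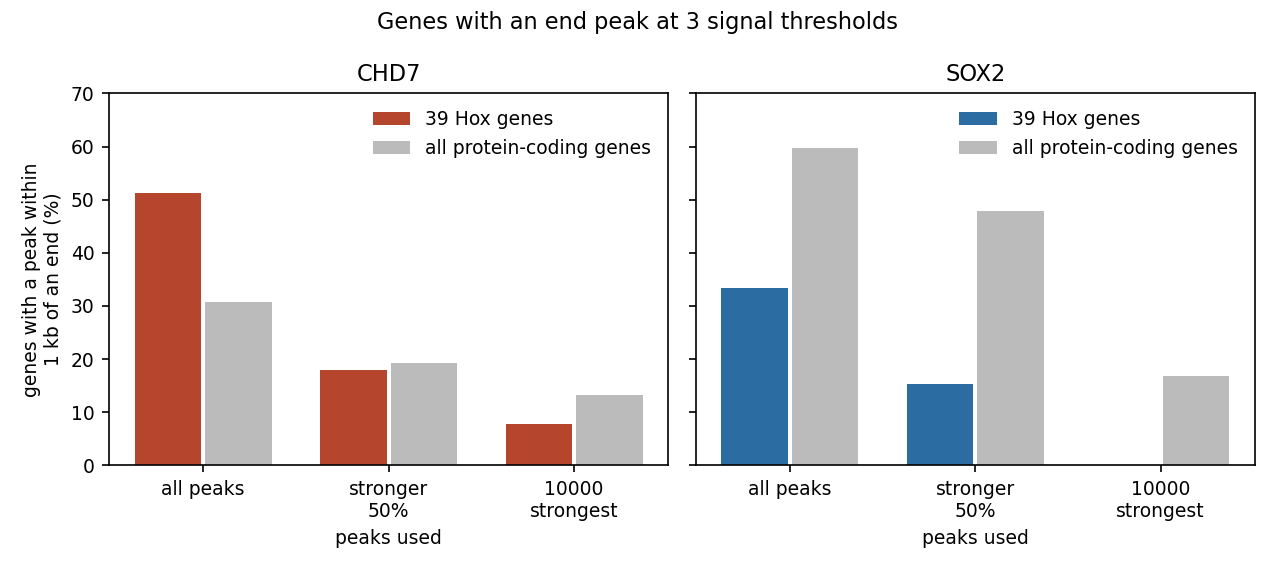
Percent of the 39 Hox genes and of all 21887 protein-coding genes with a peak within 1 kb of a gene end (vertical axis), for CHD7 and SOX2, using all peaks, the stronger 50% of each list or its 10000 strongest peaks. For CHD7 the Hox share falls from 51.3% to 17.9% and 7.69%, from above the share of all genes to below it, and for SOX2 it is below at each threshold.

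By paralog group, CHD7 lay at the ends of 12 of 16 genes (75%) in groups 9 to 13, the genes of the posterior body, 5 of 12 (41.7%) in groups 1 to 4 and 3 of 11 (27.3%) in groups 5 to 8. Over all genes the share was 30.8%, near that of groups 5 to 8. By cluster, CHD7 lay at the ends of 9 of 11 Hoxa, 1 of 10 Hoxb, 4 of 9 Hoxc and 6 of 9 Hoxd genes. The clusters are spread unevenly over the paralog groups, as Hoxb has Hoxb9 and Hoxb13 alone in groups 9 to 13. Differences between paralog groups were not separated from those between clusters. SOX2 was at 5 of 16, 4 of 12 and 4 of 11, each below the 59.7% of all genes. Both paralogs of group 12 had CHD7 and neither had SOX2, and in group 13 CHD7 was at 3 of 4. Neither paralog of group 7 had a peak of either list. With the stronger 50% of peaks the CHD7 counts were 4 of 16, 3 of 12 and 0 of 11, against 19.2% of all genes, so that groups 9 to 13 and groups 1 to 4 had equal shares. Given to the nearest Hox gene, 15 CHD7 peaks belonged to groups 1 to 4, 4 to groups 5 to 8 and 16 to groups 9 to 13, and SOX2 gave 15, 2 and 17. Group 3 took 11 CHD7 and 13 SOX2 peaks in this way, since Hoxa3, Hoxb3 and Hoxd3 are annotated across their neighbours. By the nearest gene end it took 5 and 8, and group 4 took 6 and 3.

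**Figure D5:**
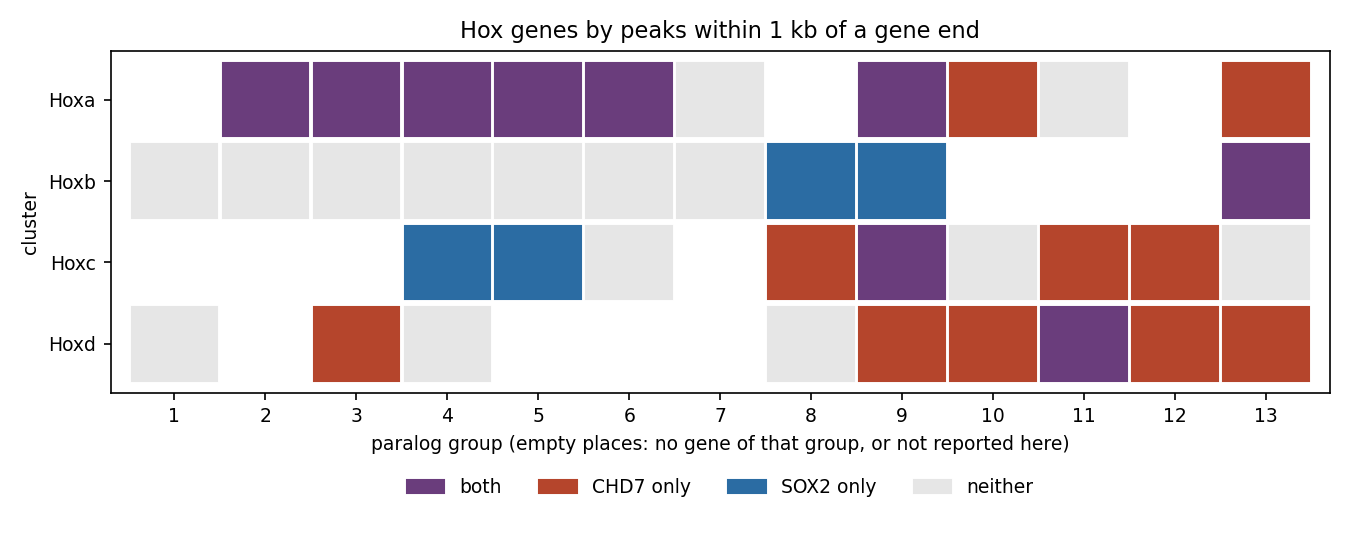
Hox genes reported one by one, by cluster (vertical axis) and paralog group (horizontal axis), coloured by whether CHD7, SOX2, both or neither had a peak within 1 kb of a gene end. Both lists have an end peak at 6 of 11 Hoxa genes, whether or not these peaks overlap. Hoxb1 to Hoxb7 have neither, and 5 of 9 Hoxd genes have CHD7 without SOX2.

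The transcripts of Hoxa are read from the minus strand in all promoter windows at hand, so higher coordinates are upstream. Hoxa2, the selector gene of the second branchial arch, had a SOX2 peak over its start, at chr6:52164751-52165600 (total signal 1466.13, higher than 79.02% of the list). The neighbouring CHD7 peak at chr6:52165551-52166350 (total signal 528.301) began 720 bases upstream and shared 50 bases with it. A further SOX2 peak at chr6:52165901-52166350 (938.323) lay wholly within that CHD7 peak. The peaks of Hoxa2 thus all lay over its start or upstream of it.

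Hoxa3, a regulator of the third arch and the thymus, had CHD7 and SOX2 at opposite ends. The CHD7 peak at chr6:52169801-52171200 (819.778) lay near its lower end, and SOX2 peaks at chr6:52212151-52212900 (879.675) and chr6:52213601-52214350 (938.321) lay on both sides of its annotated start. Hoxa4 had a CHD7 peak over its lower end (chr6:52189101-52190350, 769.68) and a SOX2 peak beyond its higher end (chr6:52191901-52192800, 1407.48), 1551 bases apart. Both genes counted as having both lists without any shared base. Their paralogs in Hoxb and Hoxd had less: Hoxb3 and Hoxb4 had neither list at an end, and Hoxd4 also had neither. Hoxd3 had a CHD7 peak at its higher end (chr2:74746851-74748200, 601.171) and no SOX2 peak there.

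Hoxb1, which gives the fourth rhombomere of the hindbrain its identity, and Hoxb2, its neighbour and target in the hindbrain, had no peak of either list nearby. The nearest CHD7 peak ended 33246 bases from Hoxb1 and the nearest SOX2 peak 24596 bases from it. For Hoxb2 these distances were 19132 and 10482 bases. Hoxd1, also of group 1, had its nearest CHD7 peak at 7780 and its nearest SOX2 peak at 11380 bases.

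In the middle of the clusters Hoxa5 and Hoxa6, which pattern the neck and upper trunk, carried both lists. A CHD7 peak at chr6:52203151-52204200 (619.388) lay in Hoxa5 and within 1 kb of Hoxa6. A second CHD7 peak upstream of Hoxa6, at chr6:52208901-52210350 (564.736), shared 700 bases with a SOX2 peak (1202.22). Hoxa5 had a SOX2 peak at its lower end, at chr6:52200151-52201050 (938.32). Of the other genes of groups 5 to 8, Hoxc8, which acts in the thorax and forelimb motor neurons, had CHD7 without SOX2. Its peak, at chr15:102994501-102995250, had a total signal of 432.661, higher than 0.19% of the CHD7 list. Hoxb8 had a SOX2 peak (938.321), and Hoxc4 and Hoxc5 shared 1 (762.386), close to the lowest value of the SOX2 list. Hoxa7, Hoxb5, Hoxb6, Hoxb7, Hoxc6 and Hoxd8 had neither.

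The posterior genes with both lists at an end were Hoxa9, Hoxb13, Hoxc9 and Hoxd11. At Hoxa9, a gene of blood progenitors and of the posterior axis, the CHD7 peak at chr6:52221051-52222250 (687.703) shared 550 bases with the strongest SOX2 peak of the clusters, at chr6:52221701-52222400 (1759.35, higher than 85.93% of the list). Both lay beyond the lower end of Hoxa9, away from its start, at 847 bases for CHD7 and 697 bases for SOX2. At Hoxb13, known from the prostate and tail, a SOX2 peak lay on one end (chr11:96194201-96195200, 1348.84) and a CHD7 peak on the other (chr11:96195951-96197150, 569.29), 751 bases apart. Hoxc9 and Hoxd11 likewise had the lists at different ends. Hoxc9, a gene of thoracic motor neurons, had total signals of 469.095 for CHD7 and 850.353 for SOX2. Hoxd11, a gene of the forearm, had 446.324 for CHD7 and 1114.26 for SOX2. Of these 4 genes, Hoxa9 is the one where the end peaks overlapped.

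CHD7 without SOX2 was found at 8 of 16 posterior genes (50%), a share that was not counted apart over all genes. CHD7, with or without SOX2, lay at 75% of the posterior genes, against 30.8% of all protein-coding genes. Both lists lay at 25%, against 28.3%. In Hoxd the genes with CHD7 without SOX2 were Hoxd9 (chr2:74700301-74701150, 942.745), Hoxd10 (473.65), Hoxd12 (chr2:74674901-74676550, 614.834) and Hoxd13 (chr2:74667751-74669000, 587.508). Hoxd10 to Hoxd13 pattern the limb, with Hoxd13 acting in the digits. In Hoxa they were Hoxa10 (906.31) and the digit gene Hoxa13, whose peak at chr6:52261501-52262000 (692.257) lay 621 bases from it. In Hoxc they were Hoxc11 (chr15:102955651-102956450, 551.073) and Hoxc12 (chr15:102938051-102939600, 500.976). Hoxd9 had the strongest CHD7 peak of its cluster, higher than 75.43% of the list. The end peaks of Hoxd9 and Hoxa10 lay beyond the gene end away from the start, and that of Hoxd10 lay inside Hoxd11. Hoxd10, Hoxd12, Hoxd13, Hoxc11 and Hoxc12 lay below the middle of the list. Hoxb9 had SOX2 alone (chr11:96277101-96277250, 909), and Hoxa11, Hoxc10 and Hoxc13 had neither within 1 kb.

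The limit of 1 kb left some genes just outside. Hoxa7 had its nearest CHD7 peak at 1178 bases and its nearest SOX2 peak at 1273 bases, and Hoxa11 had them at 1410 and 1160 bases. Hoxb6 had CHD7 at 1287 bases, and Hoxa10 and Hoxd10 had SOX2 at 1597 and 1923 bases. Just inside were Hoxa9 with CHD7 at 847 bases and Hoxd11 with SOX2 at 743 bases. With 2 kb CHD7 lay at 23 Hox genes (59%, against 34.1% of all genes) and SOX2 at 17 (43.6% against 68.6%). Both lists lay at 13 (33.3% against 31.7%). With 500 bases the counts were 16 (41% against 28.5%), 8 (20.5% against 52.4%) and 3 (7.69% against 25.5%). For both lists the Hox share was above that of all genes with 2 kb and below it with 500 bases. It was also below with 1 kb (23.1% against 28.3%). The count of genes with both lists thus varied more with the window than the count for CHD7.

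Peaks over transcription starts were examined for the 22 genes with a RefSeq promoter window. A CHD7 peak lay within 1 kb of a start at 9 of 22 genes (40.9%), against 31% of the 17492 genes with a window. A SOX2 peak lay there at 5 (22.7% against 54.9%). Both lay there at 3 (13.6% against 28.2%), which were Hoxa2, Hoxa6 and Hoxd11. Directly over a start lay CHD7 peaks at Hoxd13, Hoxd12 and Hoxc4 and SOX2 peaks at Hoxa2 and at the downstream start of Hoxd11, and no start had both. Hoxc4 was missed by the gene ends, since this start lies inside the annotated gene. Its CHD7 peak, at chr15:103033451-103034600, had a total signal of 605.725, and a stronger one stood upstream at chr15:103031101-103032050 (833.442). The core of the SOX binding motif, ACAAT or its reverse complement ATTGT, was searched on both strands, and the forms can overlap in the letters AT. It occurred in 7 of the 24 windows of Hox genes (29.2%) and in 27.7% of the 21263 windows of protein-coding genes. A match is a description and not a binding site.

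The 250 bases upstream of 6 starts are printed from RefSeq (GRCm38.p6), 5′ to 3′ on the strand of the gene, with any match to the SOX core in capitals. The first 3 are the starts under a CHD7 peak, Hoxa2 is a start under a SOX2 peak, and Hoxb1 and Hoxd1 are starts of group 1 with neither. They are, in order, chr2:74667975-74668224 (plus), chr2:74674763-74675012 (plus), chr15:103034145-103034394 (plus), chr6:52164832-52165081 (minus), chr11:96365508-96365757 (plus) and chr2:74762730-74762979 (plus). The choice of these 6 was made after their values were seen.
Hoxd13: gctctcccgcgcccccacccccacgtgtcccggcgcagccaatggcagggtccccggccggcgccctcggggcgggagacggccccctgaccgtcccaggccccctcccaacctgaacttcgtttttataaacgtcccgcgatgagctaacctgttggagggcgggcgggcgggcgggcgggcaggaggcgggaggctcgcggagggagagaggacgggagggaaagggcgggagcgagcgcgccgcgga
Hoxd12: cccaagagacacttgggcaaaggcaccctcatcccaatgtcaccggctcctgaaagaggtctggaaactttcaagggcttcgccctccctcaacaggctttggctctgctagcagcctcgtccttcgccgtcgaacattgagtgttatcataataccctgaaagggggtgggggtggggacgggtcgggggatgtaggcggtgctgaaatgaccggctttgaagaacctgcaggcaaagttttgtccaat
Hoxc4: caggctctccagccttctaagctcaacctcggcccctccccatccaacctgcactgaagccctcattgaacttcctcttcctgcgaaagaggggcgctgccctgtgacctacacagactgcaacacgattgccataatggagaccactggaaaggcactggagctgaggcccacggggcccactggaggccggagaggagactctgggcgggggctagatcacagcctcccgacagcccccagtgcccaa
Hoxa2: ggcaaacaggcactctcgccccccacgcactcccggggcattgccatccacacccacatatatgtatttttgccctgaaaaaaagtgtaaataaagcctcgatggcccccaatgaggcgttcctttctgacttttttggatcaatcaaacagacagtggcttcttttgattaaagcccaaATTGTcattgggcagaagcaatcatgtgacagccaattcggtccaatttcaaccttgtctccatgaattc
Hoxb1: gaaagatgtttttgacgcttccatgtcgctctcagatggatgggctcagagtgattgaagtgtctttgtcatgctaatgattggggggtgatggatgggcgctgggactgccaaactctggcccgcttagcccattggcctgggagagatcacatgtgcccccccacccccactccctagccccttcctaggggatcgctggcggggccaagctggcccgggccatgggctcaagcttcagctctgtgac
Hoxd1: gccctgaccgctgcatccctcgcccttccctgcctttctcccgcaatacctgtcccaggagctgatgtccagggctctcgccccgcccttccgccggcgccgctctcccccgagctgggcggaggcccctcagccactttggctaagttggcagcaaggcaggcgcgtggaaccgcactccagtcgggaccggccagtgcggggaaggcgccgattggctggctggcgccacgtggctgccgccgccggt
The 3 sequences before starts under CHD7 peaks, which the peaks cover in part or in full, differed in CpG content. Hoxd13 held 31 CpG dinucleotides in its 250 bases, Hoxd12 held 10 and Hoxc4 held 8. Hoxd1, with neither list, held 24, and Hoxb1 held 7. Hoxa2, under the SOX2 peak, held 6 CpG dinucleotides and was the single one of these 6 upstream stretches with the SOX core, which it held in 1 place. The match in the Hoxc4 window lies in the bases after its start, which are not printed. Over all 24 Hox windows the median observed/expected CpG ratio was 0.626 (range 0.257 to 1.02), against 0.567 over the windows of all protein-coding genes.

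The share of CHD7 peaks that met a SOX2 peak was smaller inside the clusters than in the whole list, and the share of SOX2 peaks that met a CHD7 peak was larger, neither difference being tested. Of the 35 CHD7 peaks 8, or 22.9% (exact 95% binomial interval 10.4% to 40.1%), shared at least 1 base with a SOX2 peak, against 65.3% of the whole CHD7 list. Of the 34 SOX2 peaks 9, or 26.5% (12.9% to 44.4%), shared a base with a CHD7 peak, against 14.7% of the whole SOX2 list. Intervals cover counting error in the numbers of peaks only. They treat peaks as independent, though neighbouring peaks share their surroundings, and they hold no variation between animals or libraries. Reads amplified by PCR and lacking molecular identifiers also do not count molecules. The Hox peaks were also set beside list peaks of like strength, as they were weak. Between total signals of 494.1 and 653.5, the middle of the Hox values, 4 of 17 Hox peaks (23.5%) were shared, against 55% of the 10051 peaks of the list. For SOX2, between 821 and 1100, the shares were 4 of 17 (23.5%) and 6.69%. The Hox shares were lower where the regions of maximum signal had to share a base, at 14.3% for CHD7 and 14.7% for SOX2. With the stronger 50% of each list they were 11.1% of 9 CHD7 peaks and 10% of 10 SOX2 peaks. Shares of the whole lists under these stricter rules are not given here, so these values show no contrast with the lists. The 65.3% and 14.7% above count peaks sharing at least 1 base and are a different measure.

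Hoxa held 5 of the 8 shared CHD7 peaks, and Hoxc held 0. Besides those at Hoxa2, Hoxa6 and Hoxa9, one lay inside Hoxa11, where a CHD7 peak at chr6:52243801-52244400 (487.312) shared 450 bases with a SOX2 peak (1554.1). Another lay between Hoxa9 and Hoxa10. Hoxb had a shared place inside Hoxb3, with 650 bases in common (519.193 for CHD7 and 791.708 for SOX2), and one between Hoxb13 and Hoxb9, at chr11:96231301-96232100 (696.811 for CHD7). Hoxd had a shared place inside Hoxd3, at chr2:74718301-74718750 (546.519), with 250 bases in common. The 27 CHD7 peaks without SOX2 stood a median of 5101 bases from the nearest SOX2 peak. Of the 3 SOX2 peaks within the 33035 strongest of their list, at Hoxa9, Hoxa11 and Hoxa2, each shared bases with CHD7.

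Some of the strongest peaks of each cluster lay away from gene ends. In Hoxb the strongest CHD7 peak was at chr11:96202501-96203200 (701.366), between Hoxb13 and Hoxb9. In Hoxd a CHD7 peak at chr2:74752551-74753550 (605.725) stood between Hoxd3 and Hoxd1. SOX2 peaks at chr2:74745351-74745750 (1055.61) and chr2:74718251-74718550 (967.645) lay inside Hoxd3. The strongest SOX2 peak of Hoxc, at chr15:102961251-102961900 (879.676), lay between Hoxc11 and Hoxc10.

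Stronger peaks stood beside the clusters. The strongest CHD7 peak within 100 kb of a cluster was at chr6:52304601-52305200 (total signal 1598.57), 43721 bases from Hoxa and 8298 bases from Evx1, the homeobox gene linked to that cluster. The strongest SOX2 peak was at chr11:96151251-96151400 (3577.35) in Ttll6, 42916 bases from Hoxb. Another SOX2 peak, at chr15:103060051-103060450 (2697.68), lay 23195 bases from Hoxc. All 3 overlapped a peak of the other list. Each had a higher total signal than the strongest peak of the same list inside the clusters.

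The clusters also hold noncoding genes. Of 25 long noncoding RNA genes in the 4 stretches, 10 had CHD7 at an end and 7 had SOX2. Over all long noncoding RNA genes the shares were 13.1% and 40.2%. Since these genes lie between and across Hox genes, their peaks are largely those already described. Hoxaas2 had those upstream of Hoxa2 and the CHD7 peak of Hoxa3. Its signals summed over end peaks were 1348.079 (CHD7) and 2404.453 (SOX2). Hoxaas3 had 3 SOX2 peaks (2756.316) and no CHD7 peak. Mira (938.321) and LOC115490409 (1407.48) had SOX2 alone, with the peaks of Hoxa3 and Hoxa4. Hoxa11os and LOC115490410 had the shared peaks inside Hoxa11. Gm30134 and Gm11538, beside Hoxb13, had a CHD7 peak outside any Hox gene (701.366). Gm30528, which begins in Hoxc4 and ends beyond it, had 551.073 for CHD7 and 2697.68 for SOX2 at its far end. Haglr, beside Hoxd1, had the CHD7 peak of Hoxd3, and Gm14424 had a CHD7 peak of its own (605.725). The other 12 had neither list at an end, Hotair among them.

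Of the 6 microRNA genes in the clusters, 1 had peaks at an end, against 9.28% of microRNA genes with CHD7 and 30.5% with SOX2. This was Mir196b, between Hoxa9 and Hoxa10 (chr6:52230081-52230165). It lay wholly under the CHD7 peak at chr6:52229551-52231050 (906.31, higher than 73.53% of the list), which is also the end peak of Hoxa10. A SOX2 peak at chr6:52229151-52229600 (908.999) shared 50 bases with that peak. The related genes Mir196a-1 in Hoxb and Mir196a-2 in Hoxc had no peak of either list at an end, and the same held for Mir10a, Mir10b and Mir615. Mature miR-196 is known to target Hoxb8. The mature 5p sequences of the miR-196 and miR-10 families are printed from RefSeq, with the seed (bases 2 to 8) in capitals, to show that the gene with peaks and those without share a seed.
miR-196b-5p: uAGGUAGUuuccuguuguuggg
miR-196a-5p: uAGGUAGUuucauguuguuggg
miR-10a-5p: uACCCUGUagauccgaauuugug
miR-10b-5p: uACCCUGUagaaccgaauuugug
The 3 Mir196 genes thus encode the same seed, and Mir196a-1 and Mir196a-2 the same mature sequence, while their peaks differed.

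Genes that work with HOX proteins had more peaks than the Hox genes themselves. Of 9 cofactor genes of the PBX, MEIS and PKNOX families, 8 had CHD7 at an end and 9 had SOX2, against 30.8% and 59.7% of all protein-coding genes. At the ends of Meis2 the summed signal was 2500.32 (CHD7) and 4075.84 (SOX2), and at those of Pbx3 1657.77 and 4105.16. Pknox2 had 1001.95 and 5336.702. Each of these 3 SOX2 values exceeded that of any Hox gene, of which the highest was 1817.996 at Hoxa3. Of 9 regulators of Hox expression 3 had CHD7 and 5 had SOX2. Ctcf, which encodes a DNA-binding protein of chromatin loop borders, had 560.182 and 2932.26, and Gdf11, a signal for posterior Hox expression, had SOX2 alone (3929.22). Of 5 ParaHox and cluster-linked genes, 0 had CHD7 and 2 had SOX2, which were Gsx1 (938.32) and Evx1 (791.709). The Iroquois genes, another family of clustered homeobox genes, had CHD7 at 3 of 6 and SOX2 at 6 of 6, with 6.52 SOX2 peaks for each CHD7 peak across their clusters. The difference between the families was not tested.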

How the data were processed

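CUT&Tag peaks of CHD7 and SOX2 from E10.5 mouse otocysts were analysed, with 1 library each, and the library without primary antibody is not analysed here. Per the submitters' processing notes, the tools were Bowtie2, deepTools and SEACR, with build mm10. Not given in the sources used here are the versions, the settings of the peak caller, the scaling, the use of the control and the handling of duplicates. All deposited values are coverage signal, summed over a peak and at its maximum, as the authors' lists give them, with 1 list per library. Positions count from 1. Depth is unknown, so the precision is that of the number of peaks.

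The members and gene lists were chosen with earlier results of these data known. A peak was at a gene end when it had a base within 1 kb of either outer border of the gene in the RefSeq table (GRCm38.p6), and shared when a minimum of 1 base overlapped a peak of the other list. It was inside a cluster with at least 1 base in the stretch, and its nearest Hox gene was taken from its midpoint to the gene body. Chromosome lengths were taken as the highest coordinate of a gene or peak. Genes were named by a fixed rule: end peaks in both lists (up to 4 per cluster), CHD7 without SOX2, the strongest peaks of each cluster, and up to 4 genes of each other list. Hoxa5, Hox genes without peaks, other Hox genes with SOX2 alone and the Iroquois genes fell outside this rule and were added after their values were seen. Promoter windows matched 22 of 39 members, and 17 were missing, among them Hoxa4, Hoxb2, Hoxb3, Hoxb5, Hoxb6, Hoxb7, Hoxb9, Hoxb13, Hoxc5, Hoxc6, Hoxc8, Hoxc9, Hoxc10, Hoxc11, Hoxc12 and Hoxc13. Intervals are exact binomial (Clopper-Pearson) at 95%. Some genes, 1 of them a Hox gene counted in the totals, are not reported by name here. The planned rule for promoters asked for starts under both lists, of which there were 0, so starts under 1 list are shown. Alternatives were stricter peak sets, other windows, other cluster borders and other rules for sharing. Counting was tested on simulated peaks, where 200 of 200 planted genes and 0 others were called over 21887 genes. Simulated background peaks were kept far from gene ends, and planted genes were long with ends apart from others. The test thus checks the counting code and does not cover crowded or overlapping genes such as the Hox genes. Tables were made with pandas 2.3.3 and numpy 2.4.6 in Python 3.11.15, intervals with scipy 1.17.1 and plots with matplotlib 3.10.9.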

Additional observations from a re-analysis of the deposited data

How the results depend on the processing

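No paired analysis was possible because each antibody has 1 library. Stricter peak sets changed the counts most. With the stronger 50% of each list the clusters held 9 CHD7 and 10 SOX2 peaks, and Hox genes with an end peak numbered 7 for CHD7, 6 for SOX2 and 2 for both. By paralog groups 1 to 4, 5 to 8 and 9 to 13 the CHD7 genes were 3, 0 and 4 and the SOX2 genes 2, 1 and 3, and 10% of the 10 SOX2 peaks overlapped CHD7. With 10000 peaks kept per list, the strongest, the clusters held 3 CHD7 and 0 SOX2 peaks, 3 genes with CHD7 (1, 0 and 2 by paralog groups) and 0 genes with SOX2 or both (0, 0 and 0). There 0% of the 3 CHD7 peaks were shared, and the share of SOX2 peaks could not be given. With the SOX2 list at the length of the CHD7 list there were 3 SOX2 peaks, all overlapping CHD7 (100%), and 8.57% of CHD7 peaks were shared. SOX2 then lay at 2 genes (1, 0 and 1 by paralog groups), both with CHD7 (2).

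With a window of 500 bases SOX2 lay at 8 genes (2 in groups 5 to 8 and 2 in groups 9 to 13), both lists at 3, and CHD7 at 3 genes of groups 1 to 4. With 2 kb CHD7 lay at 5 genes of groups 5 to 8 and SOX2 at 8 of groups 9 to 13. Around starts alone, over 22 genes, CHD7 lay at 9 (2 of 8 in groups 1 to 4, 5 of 9 in groups 9 to 13), SOX2 at 5 (2, 1 and 2) and both at 3, where fewer genes were counted. Extending the clusters by 10 kb, leaving out Hoxb13, counting midpoints, and asking for 50% of the shorter peak or for the maximum-signal regions to be shared left the cluster counts within 1.5 times. The shares fell by more than that with the maximum-signal regions (to 14.3% for CHD7 and 14.7% for SOX2), and the CHD7 share also with the stronger 50% (to 11.1%). Counts by cluster and by nearest gene moved by over 1.5 times in 17 of 30 cases, all under the stricter peak sets except SOX2 peaks nearest to groups 5 to 8 (4 by gene end in place of 2). Nearest-gene counts were not run with stricter peak sets or wider clusters. No result was tested. The small numbers of peaks, and the unknown depth, limit every count.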
